A study of Mus musculus with 15 samples.

Results

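Ribosomal protein genes of the mouse were described here through the methylation of CpG sites in and around them in sperm. The members were the protein-coding genes whose symbol starts with Rpl or Rps (cytosolic ribosome) or with Mrpl or Mrps (mitochondrial ribosome) followed by a digit, together with Rpsa, Rplp0, Rplp1 and Rplp2. The Rps6k genes, which encode kinases, were left out. The RefSeq annotation held 169 such genes among 21896 protein-coding genes, 91 cytosolic and 78 mitochondrial. The cytosolic names include Rps19bp1, which encodes a binding protein rather than a ribosomal protein. They also include Rpl34-ps1 and Rpl31-ps12, whose symbols are of the kind given to pseudogenes. These names are counted in the shares below. A CpG belonged to a gene if it lay inside the annotated span or within 2 kb of either end. This gave 279 member CpGs of the 204492 CpGs listed for every library, 119 at cytosolic and 160 at mitochondrial ribosomal protein genes. Of these, 31 cytosolic (26.1%) and 40 mitochondrial CpGs (25%) also lay inside or within 2 kb of another protein-coding gene.

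The libraries were reduced representation bisulfite sequencing (RRBS) libraries, in which DNA is cut with MspI at CCGG, converted with bisulfite and sequenced, so that unmethylated cytosines read as thymine. Each came from sperm of male C57BL/6 mice of generation G1. The diet label was PR in 8 libraries and Control in 7, and the design text names the comparison as protein-restricted against control mice. The labels used here give neither the ages nor which generation ate the diet, and do not say that each library came from a separate animal. The p-values therefore measure only the spread between these libraries, which may be partly technical.

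Cytosolic ribosomal proteins form the large and small subunits of the ribosome that translates messenger RNA of the nucleus. Mitochondrial ribosomal proteins are also encoded in the nucleus and are imported into mitochondria, where their ribosome makes subunits of the respiratory chain. Both kinds are housekeeping genes, with promoters that are usually rich in CpG and unmethylated, and in mammals the cytosolic ones typically start transcription in a run of pyrimidines that ties their translation to growth signals.

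Promoter sequence was available from RefSeq (GRCm38.p6, the patch release of mm10) for 139 of the 169 genes, as windows of 300 bases around each annotated start. The 82 windows of cytosolic genes held 1687 CpGs with a median of 21 a window, the 75 windows of mitochondrial genes held 1621 with a median of 21, and the 21262 windows of all protein-coding genes had a median of 13. Only 3 of these CpGs were listed in the data at cytosolic genes and 0 at mitochondrial genes, so 1.22% and 0% of windows held a listed CpG, beside 0.550% of all windows. All 3 lay in one window, that of the upstream start of Rpl22, a large-subunit protein also known for a role in T cell development in the mouse. Rpl22 has a second annotated start inside the gene, with 15 CpGs in its window and none listed. CpGs absent from the list were not necessarily unsequenced, since every listed CpG carried methylated reads in every library. The stretch from 110 bases before to 20 bases after the start is printed for both Rpl22 starts (chr4:152324326-152324455 and chr4:152325616-152325745, both on the + strand). It is printed also for Rpl28 of the large cytosolic subunit (chr7:4792855-4792984, + strand) and Mrps21 of the small mitochondrial subunit (chr3:95871495-95871624, - strand), as examples of the CpG-dense promoters with no listed CpG. Each runs 5′ to 3′ in the direction of transcription, and capitals mark every CpG.

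Rpl22 upstream start: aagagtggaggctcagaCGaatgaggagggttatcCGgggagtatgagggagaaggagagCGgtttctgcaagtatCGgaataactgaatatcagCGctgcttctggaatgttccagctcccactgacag

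Rpl22 inner start: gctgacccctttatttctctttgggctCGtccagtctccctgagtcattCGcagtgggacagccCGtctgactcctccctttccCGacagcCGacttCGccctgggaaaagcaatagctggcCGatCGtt

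Rpl28: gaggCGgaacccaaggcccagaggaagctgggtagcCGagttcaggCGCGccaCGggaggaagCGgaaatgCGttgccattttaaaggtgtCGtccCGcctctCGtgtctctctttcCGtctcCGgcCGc

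Mrps21: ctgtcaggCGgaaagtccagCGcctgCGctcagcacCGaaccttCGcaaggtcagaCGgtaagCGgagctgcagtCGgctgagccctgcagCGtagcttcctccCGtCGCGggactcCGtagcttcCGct

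In these stretches Rpl22 has 5 CpGs at the upstream start and 8 at the inner one, while Rpl28 has 13 and Mrps21 has 14. The last 3 CpGs of the upstream Rpl22 stretch, at positions -50, -34 and -15 counted from the first transcribed base as 0, are the listed ones. Their mean levels over all 15 libraries were 96.9%, 93.8% and 93.7%. A long noncoding transcript, 9430083M05Rik, is annotated across the same bases. The letters of the windows were also searched for short motifs on both strands. The MspI site CCGG occurred in 85.4% of cytosolic and 86.7% of mitochondrial windows, beside 62.2% of all windows. The ETS core CCGGAAG, which contains the MspI site, occurred in 32.9% and 34.7%, beside 11.6%. The YY1 core AAGATGG occurred in 14.6% and 17.3%, beside 6.24%. The NRF1 consensus motif occurred in 7.32% of cytosolic windows, near the 6.38% of all windows, and in 17.3% of mitochondrial windows. A start in a pyrimidine run (C at the first transcribed base followed by 4 more C or T) was annotated in 15 cytosolic windows (18.3%), 0 mitochondrial windows and 2.21% of all windows. These are matches of letters, not binding sites.

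Every listed CpG had at least 11 methylated reads in every library, in both groups. CpGs with fewer are not in the table, so the levels given here describe CpGs that carried methylated reads throughout. Over the listed CpGs, libraries held 6650912 to 10712016 reads in PR and 7846118 to 11841657 in Control, and the members held 7224 to 12706 reads a library. Median coverage per CpG was 26 to 42 reads a library. The sperm label could not be tested with these data. Listed CpGs before Meg3 (3) and Rasgrf1 (4), genes with imprints known to be methylated in sperm, averaged 94.3% ± 1.42 in PR and 95.5% ± 1.09 in Control (SD, n = 8 and 7). All listed CpGs averaged 95.3% in both groups, and only CpGs with methylated reads were listed, so such levels do not single out sperm. Whether these CpGs lie inside the imprinted regions was not tested. At the starts of 5 maternally methylated genes 0 CpGs were listed, so no level could be given there.

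Fewer cytosolic than mitochondrial ribosomal protein genes had a listed CpG. At least 1 CpG was listed for 34 of the 91 cytosolic genes (37.4%) and 40 of the 78 mitochondrial genes (51.3%), beside 57.4% of all protein-coding genes. Cytosolic genes are short, with a median span of 3175 bases, against 7690.5 bases for mitochondrial ribosomal protein genes and 17149 bases for all protein-coding genes. Per 100 kb of span plus the flanks of 2 kb on either side, the listed CpGs numbered 16.9 at cytosolic, 12.1 at mitochondrial and 10.4 at all protein-coding genes. The genes with no listed CpG, 57 cytosolic and 38 mitochondrial, include the stalk proteins Rplp0 and Rplp1, the laminin-receptor relative Rpsa, and the X-linked Rpl10, Rpl39, Rps4x and Rpl36a. They also include Rpl10l and Rpl39l, the copies known for their expression in male germ cells. Another 16 cytosolic and 17 mitochondrial genes had 1 or 2 listed CpGs, and 18 cytosolic and 23 mitochondrial genes had the 3 or more needed for a gene-level value.

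The methylation of cytosolic ribosomal protein genes differed between the diets by less than the spread between libraries. The mean over their 119 CpGs was 92.8% ± 0.260 in PR (SD, n = 8; lowest 92.3%, median 92.8%, highest 93.1%) and 92.5% ± 0.574 in Control (SD, n = 7; lowest 91.9%, median 92.3%, highest 93.4%). All 8 PR libraries lay inside the Control range, and the difference of 0.253 percentage points was smaller than either SD. Of the 119 CpGs, 71 were higher and 48 lower in PR, with a median difference of 0.163 points, while over all listed CpGs 101894 were higher and 101726 lower with a median of 0. With counts summed over CpGs in place of a mean over CpGs, the cytosolic difference changed sign to -0.149 points.

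Mitochondrial ribosomal protein genes averaged 95.9% ± 0.309 in PR (SD, n = 8; lowest 95.5%, median 95.9%, highest 96.3%) and 95.9% ± 0.255 in Control (SD, n = 7; lowest 95.5%, median 96.0%, highest 96.1%). The groups overlapped nearly throughout, with a difference of 0.0197 points. Here 82 CpGs were higher and 78 lower in PR, with a median difference of 0.0452 points. The CpGs of the other protein-coding genes averaged 96.4% in both groups, ± 0.0710 in PR and ± 0.124 in Control, and differed by 0.00299 points.

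**Figure D1:**
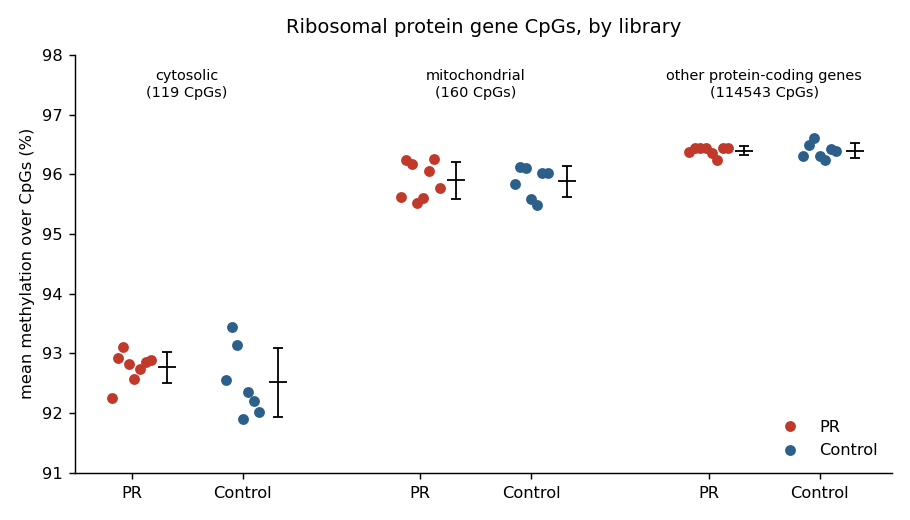
Mean methylation over the CpGs of cytosolic ribosomal protein genes, mitochondrial ribosomal protein genes and other protein-coding genes, in percent, with 1 point per library and bars for the mean and SD of each diet (PR 8, Control 7). The axis does not start at 0; the diets overlap in each class, and the cytosolic class sits lowest in every library.

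The means of the classes themselves differed. Within each library the cytosolic mean was below the mitochondrial mean, by 3.24 points on average, that is -3.24 ± 0.384 (SD, n = 15), from -4.00 to -2.68. All libraries measure the same CpGs, so this SD does not cover the spread between genes. The difference was -3.13 ± 0.259 in PR (SD, n = 8) and -3.37 ± 0.481 in Control (SD, n = 7). Both classes hold the same kind of mostly methylated CpG, with a median CpG level of 97.9% at cytosolic and 98.2% at mitochondrial genes. They differed in the tail: 15 cytosolic CpGs (12.6%) and 9 mitochondrial CpGs (5.62%) averaged under 80%, beside 5.59% of all listed CpGs and 3.64% of those at other protein-coding genes. Without the CpGs under 80% the class difference was -1.10 points, and when every gene counted equally it was -1.16 points, with the cytosolic mean lower in 14 of 15 libraries. With genes weighted equally the cytosolic mean was 93.2% in PR and 92.8% in Control, and the mitochondrial mean 94.2% in both.

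By subunit, the 36 CpGs of small-subunit cytosolic genes were lowest, at 91.1% ± 0.743 in PR and 90.7% ± 1.98 in Control (SD, n = 8 and 7). They came from 13 genes, and 5 were under 80%, among them the Rps27a CpG at 43.4% with additional reads described below. The 83 CpGs of large-subunit cytosolic genes averaged 93.5% ± 0.345 in PR and 93.3% ± 0.333 in Control. The 54 CpGs of the large mitochondrial subunit averaged 96.1% ± 0.389 in PR and 95.9% ± 0.602 in Control, and the 106 of the small mitochondrial subunit 95.8% ± 0.379 in PR and 95.9% ± 0.194 in Control. In each of the 4 subunits the diets differed by less than the larger of their SDs.

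Mean levels were lower nearer to gene starts in both classes. Among CpGs of genes with a known strand, the 11 cytosolic ones within 1 kb of a start averaged 84.8%, the 28 between 1 and 2 kb averaged 92.0%, and the 47 farther away averaged 96.8%. For mitochondrial genes the values were 87.4% for 5 CpGs, 93.6% for 22 and 96.7% for 112. Medians differed little beyond 1 kb. Between 1 and 2 kb and farther away they were 97.7% and 98.2% at cytosolic, and 97.7% and 98.4% at mitochondrial genes. Between 1 and 2 kb, 5 cytosolic and 3 mitochondrial CpGs were under 80%. Within 1 kb the medians were 90.7% and 91.3%. Only 6 genes supplied the CpGs within 1 kb (Rpl22, Rpl28, Rpl36al, Rps24, Mrps12 and Mrps21), so these are levels of a few loci, and CpGs without methylated reads are not in the table. Mitochondrial CpGs inside the gene span averaged 97.2% in PR and 97.0% in Control, and the 31 in the flanks 90.6% in PR and 91.3% in Control. Their median levels over all libraries were closer, at 98.5% in the span and 97.3% in the flanks. Of the 31 flank CpGs 5 were under 80%, all at Mrps14, Mrps21 and Mrps28. Cytosolic CpGs showed no such gap between means. The 62 in the span averaged 92.8% in PR and 92.6% in Control, and the 57 in the flanks 92.8% in PR and 92.5% in Control.

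**Figure D2:**
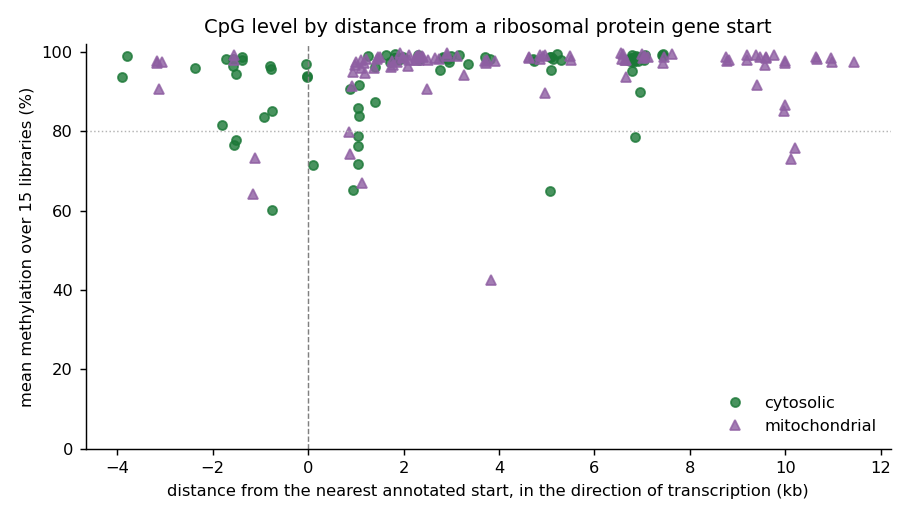
Mean methylation over the 15 libraries, in percent, of each member CpG whose gene has a known strand, by its distance in kb from the nearest annotated start (dashed line; the dotted line is 80%). All 86 cytosolic CpGs and 100 of 139 mitochondrial CpGs are drawn, the other 39 lying more than 12 kb away; most points sit near 98%, and several under 80% lie within 2 kb of a start.

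At the level of genes, none of the 41 members tested was called as different between the diets. The counts of each gene were summed and tested with a quasi-binomial model fitted to all 9222 protein-coding genes with at least 3 listed CpGs, with Benjamini-Hochberg adjustment over all of them. It called 0 of the 41 ribosomal protein genes, beside 0% of all genes, and the lowest adjusted p was 0.998. At an unadjusted threshold of 0.05 it called 0 of 41 members, beside 2.99% of all genes, and the exact two-sided permutation test over the 6435 ways to divide the libraries (smallest possible p 0.000155) likewise called 0 of 41, beside 4.8%. The diets overlapped in all 41 genes, beside 0.0217% of all genes without overlap. Among cytosolic genes 7 were higher and 11 lower in PR, with a median difference of -0.173 points and a highest of 3.37 points. Among mitochondrial genes 10 were higher and 13 lower, with a median of -0.0303 points and a range from -1.29 to 1.45, while over all genes 4630 were higher and 4592 lower with a median of 0.0023.

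**Figure D3:**
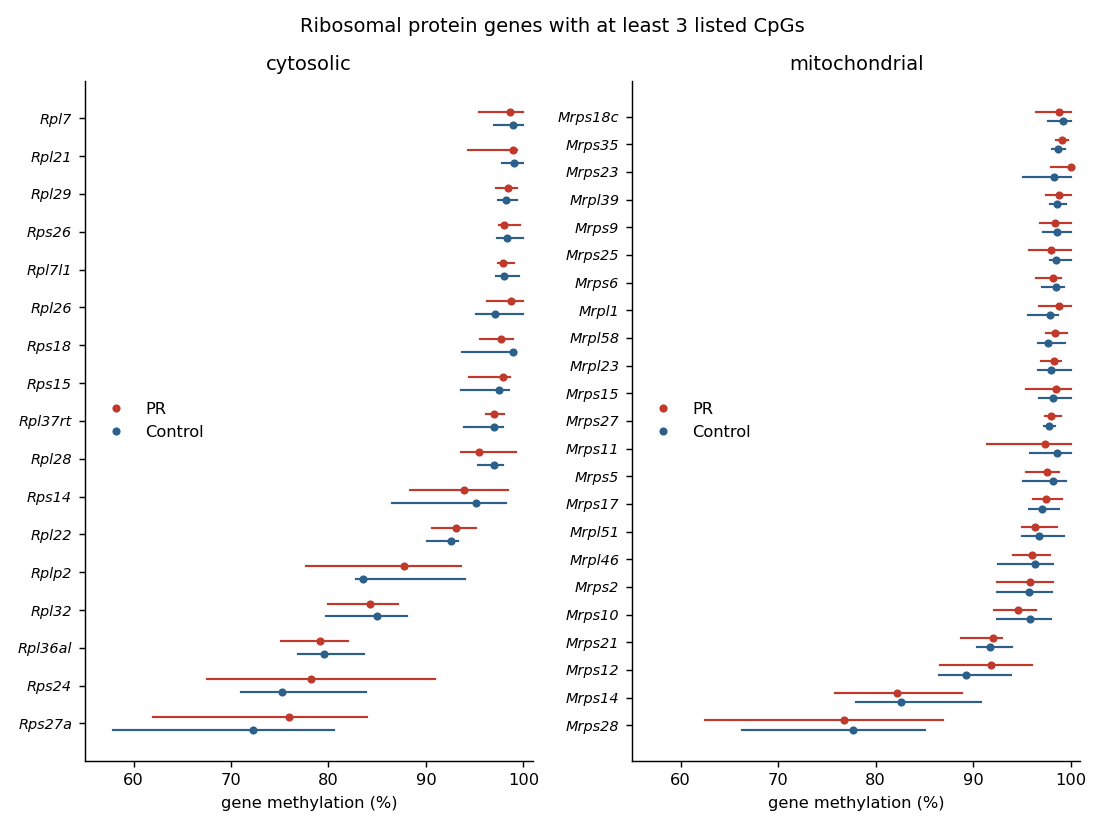
Methylation of 17 of the 18 cytosolic and all 23 mitochondrial ribosomal protein genes with at least 3 listed CpGs, in percent, with the line from the lowest to the highest library and the point at the median, PR above Control in each row. The lines of the diets overlap in every gene, and the drawn genes under 80% are Rps27a, Rps24 and Rpl36al on the left and Mrps28 on the right.

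Of the large cytosolic subunit, the genes with the most CpGs were highly methylated. Rpl37rt, a retrotransposed copy related to Rpl37, had 11 CpGs with 96.2%, 97.0% and 98.0% in PR as the lowest, median and highest library, and 93.9%, 97.0% and 97.9% in Control. The difference was 0.438 points (exact permutation p = 0.465). Rpl7l1, a relative of Rpl7, had 9 CpGs at 98.0% ± 0.621 in PR and 98.3% ± 0.760 in Control (SD, n = 8 and 7; exact permutation p = 0.473). Rpl22 itself had 10 CpGs, with 90.6%, 93.1% and 95.1% in PR and 90.1%, 92.6% and 93.3% in Control. The libraries overlapped, with PR higher by 1.04 points (exact permutation p = 0.114).

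Other large-subunit genes were lower in level. Rpl36al, a close relative of the X-linked Rpl36a, had 7 CpGs on chromosome 12, 6 inside its span, with Mgat2, a glycosyltransferase gene, within 2 kb. Its libraries ran from 75.1% through a median of 79.1% to 82.0% in PR and from 76.8% through 79.5% to 83.7% in Control (difference -0.831 points, exact permutation p = 0.488). Rpl32 had 7 CpGs at 80%, 84.3% and 87.2% in PR and 79.7%, 85.0% and 88.1% in Control as lowest, median and highest library (exact permutation p = 0.687). The lowest CpG of Rpl32 lay in its flank and was at 49.3%. Rplp2, an acidic protein of the stalk that recruits elongation factors, had 4 CpGs, all outside the span, at 87.1% ± 5.09 in PR and 85.8% ± 4.05 in Control (SD, n = 8 and 7; exact permutation p = 0.598). Rpl28 had 5 CpGs at 96.0% ± 1.97 in PR and 96.9% ± 0.805 in Control (SD, n = 8 and 7), a difference of -0.881 points (exact permutation p = 0.287).

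Of the small cytosolic subunit, Rps24, needed in human cells for processing of the small-subunit ribosomal RNA, had a wide spread. Its 3 CpGs gave 67.6%, 78.2% and 90.9% in PR and 71.0%, 75.2% and 83.9% in Control, with PR higher by 3.37 points (exact permutation p = 0.351). That was the largest difference among the 41 genes, and the Control range lay inside the PR range. It was 1.83 points without PR replicate 6, 5.17 points without PR replicate 3, and 0.0246 points with the CpG of the span alone. The CpGs at -916 and -756 from the start averaged 85.9% and 62.5% in PR and 80.8% and 57.4% in Control. At the second of them single libraries spanned 50% (95% Wilson interval 33.2% to 66.8%) to 82.6% (69.3% to 90.9%) in PR, and 45.5% (31.7% to 59.9%) to 71.2% (57.7% to 81.7%) in Control. Such intervals cover counting error only, since PCR copies were not marked.

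Rps27a encodes a fusion of ubiquitin with a small-subunit protein. Its 4 CpGs all lay in the flank, inside the span of Mtif2, the gene of a mitochondrial initiation factor. The gene value ran from 62.0% through a median of 76.0% to 83.9% in PR, and from 57.9% through 72.2% to 80.6% in Control (difference 2.15 points, exact permutation p = 0.583). Of its CpGs 1 was at 43.4% and the other 3 were at 98.1% to 98.8%. That CpG had 103 reads on average where its neighbour 16 bases away had 43.5. Between libraries of the same diet its variance was 3.77 times that of counting noise. Rps26, which lines the messenger RNA exit channel, had 7 CpGs at 98.3% ± 0.810 in PR and 98.4% ± 0.885 in Control (SD, n = 8 and 7; exact permutation p = 0.697).

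The reads at the Rps27a CpG fell into 2 parts. In PR the methylated reads numbered 36 to 70 a library, and the neighbour had 36 to 70 reads; in Control they numbered 26 to 60, and the neighbour had 26 to 62. In every library the 2 numbers were within 3 reads of each other. The unmethylated reads, 28 to 113 in PR and 30 to 87 in Control, came on top of these. The labels and notes used here do not say how reads matching more than 1 place in the genome were treated. Whether the additional reads came from this locus was not tested. A CpG of Rplp2 at 64.8% had 67.7 reads against 46.7 at its neighbour 4 bases away, which was at 98.7%. Among all CpGs between 20% and 80% with a listed neighbour within 50 bases, 191 of 6199 (3.08%) had at least 1.5 times the reads of a neighbour at 95% or more; the ratio was 2.37 at Rps27a and 1.45 at Rplp2. Without the CpG with more reads, Rps27a was at 98.3% in PR and 98.8% in Control.

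**Figure D4:**
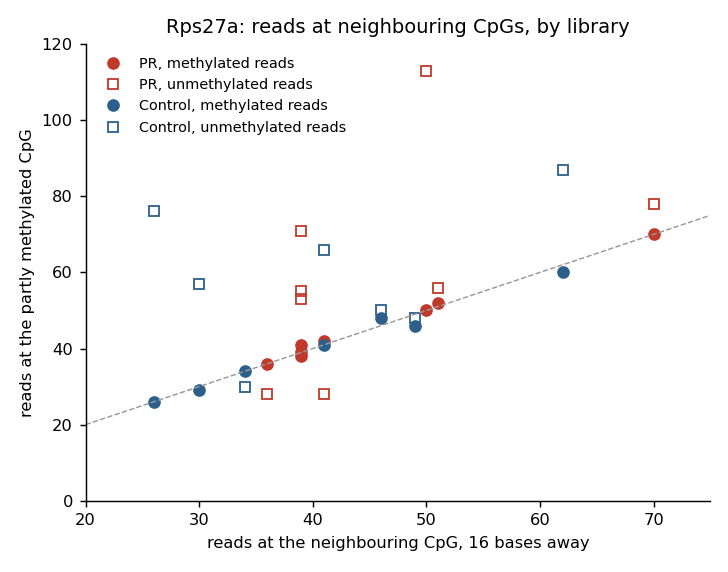
Reads at the partly methylated CpG in the Rps27a flank against reads at its neighbour 16 bases away, with 1 filled circle (methylated reads) and 1 open square (unmethylated reads) per library; the dashed line marks equal numbers. The methylated reads, 36 to 70 in PR and 26 to 60 in Control, follow the line, while the unmethylated reads do not.

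The large mitochondrial subunit was highly methylated at each of its genes with 3 or more CpGs. Mrpl58, a peptidyl-tRNA hydrolase that frees stalled mitochondrial ribosomes, had 8 CpGs at 98.4% ± 0.664 in PR and 98.0% ± 0.981 in Control (SD, n = 8 and 7; exact permutation p = 0.446). Mrpl23, whose gene lies beside the imprinted H19 and Igf2 cluster, had 7 CpGs at 98.2% ± 0.668 in PR and 98.1% ± 0.993 in Control (SD, n = 8 and 7; exact permutation p = 0.788). Mrpl1 had the lowest exact permutation p of the mitochondrial genes with 3 or more CpGs. Its 6 CpGs were at 96.8%, 98.8% and 100% in PR and at 95.7%, 97.9% and 98.7% in Control as the lowest, median and highest library, a difference of 0.985 points (exact permutation p = 0.0782). With CpGs of the span alone the Mrpl1 difference was 1.77 points and its exact permutation p 0.00544, unadjusted, with 0 genes called after adjustment.

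In the small mitochondrial subunit, Mrps27, a protein with pentatricopeptide repeats, had 14 CpGs at 98.1% ± 0.543 in PR and 97.8% ± 0.381 in Control (SD, n = 8 and 7; exact permutation p = 0.309). Mrps35 had 13 at 99.0% ± 0.411 in PR and 98.7% ± 0.465 in Control, and Mrps6, the relative of bacterial S6, had 11 at 98.1% ± 0.818 in PR and 98.5% ± 0.776 in Control. In these 3 genes the libraries of each diet varied by less than 1 point (SD). Mrps21, the relative of bacterial S21, had 14 CpGs with 88.7%, 92.0% and 92.9% in PR and 90.4%, 91.8% and 94.0% in Control (difference -0.689 points, exact permutation p = 0.376). Its 3 CpGs within 1 kb of the start printed above, at 910, 932 and 992 bases into the gene, were at 91.3%, 95.01% and 96.7%.

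Among mitochondrial genes with 3 or more CpGs, Mrps28 was the only one under 80%. Its libraries were at 62.5%, 76.8% and 86.9% in PR and at 66.3%, 77.7% and 85.0% in Control as lowest, median and highest, and the means of 76.5% in both differed by -0.00570 points (exact permutation p = 0.9998). Of its CpGs the 1 in the flank was at 47.5%. Over its 3 CpGs in the span, Mrps28 was at 99.8% in PR and 98.9% in Control. Mrps14, the relative of bacterial S14, had the largest negative difference of the mitochondrial genes with 3 or more CpGs, at 82.1% ± 4.58 in PR and 83.4% ± 3.91 in Control (SD, n = 8 and 7), -1.29 points (exact permutation p = 0.567), or -0.0520 points without Control replicate 4 and -2.27 points without PR replicate 6. Mrps23 had the largest positive difference of these genes, at 99.5% ± 0.899 in PR and 98.1% ± 2.05 in Control (SD, n = 8 and 7), 1.45 points (exact permutation p = 0.113). Mrps12, a protein of the decoding centre that shares its region with Sars2, the mitochondrial seryl-tRNA synthetase gene, was at 91.6% ± 2.94 in PR and 90.6% ± 2.88 in Control (SD, n = 8 and 7; exact permutation p = 0.502). Mrps11 was at 97.3% ± 2.58 in PR and 98.3% ± 1.31 in Control, and Mrps10 at 94.6% ± 1.41 in PR and 95.3% ± 1.98 in Control (SD, n = 8 and 7; exact permutation p = 0.425 in both).

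No single CpG passed the test either. The quasi-binomial test over all 204492 CpGs called 0 of the 279 members, beside 0% of all CpGs, with a lowest adjusted p of 1. At an unadjusted threshold of 0.05 it called 4 members, 3 higher and 1 lower in PR, beside 3.79% of all CpGs (1.89% higher and 1.9% lower). The 4 lay in Rps3, Mrpl58, Mrps27 and Mrps10, all at CpGs above 95% in both diets. At the Rps3 CpG (chromosome 7, position 99481910), in the gene of a protein at the messenger RNA entry channel, all 8 PR libraries were at 100%, while Control libraries ran from 92.9% through a median of 95.2% to 100% (exact permutation p = 0.0256, unadjusted). This was 1 unmethylated read in each of 4 Control libraries at 14 to 21 reads, and without any 1 of 12 libraries the exact permutation p was 0.0549 or more. Among the other CpGs with the smallest p in each class and direction, that of Rpl7l1 (chromosome 17, position 46775620) was at 88.9%, 97.0% and 100% in PR as lowest, median and highest library, and at 97.4%, 100% and 100% in Control. Its difference was -2.98 points (exact permutation p = 0.0132, unadjusted). The CpG in the flank of Rpl29, a gene of the large cytosolic subunit, lay inside the span of the neighbouring gene Acy1 (chromosome 9, position 106433375) and averaged 99.3% ± 1.22 in PR and 97.3% ± 1.43 in Control (SD, n = 8 and 7; exact permutation p = 0.0155, unadjusted). In both, the groups overlapped and the exact permutation p stayed under 0.05 without any 1 of the 15 libraries, while the adjusted p of the quasi-binomial test was 1. Those of Rpl28, Rpl32, Mrps28, Mrps6 and Mrps11 averaged at least 97.5% in both diets and differed by -2.47 points in Mrps11 to 1.85 points in Mrps28, and that of Rpl22 is described next. The diets overlapped at all 279 member CpGs, beside 0.0191% of all CpGs without overlap. A difference of 10 points or more was found at 0 member CpGs, beside 0.121% of all CpGs.

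The largest difference of a member CpG lay in Rpl22, 100 bases into the gene from the upstream start (chromosome 4, position 152324536). Its libraries were at 64.5%, 75.1% and 84.2% in PR and at 54.8%, 66.7% and 80% in Control as lowest, median and highest. The groups overlapped over most of their range, with a difference of 8.82 points (exact permutation p = 0.0646, unadjusted; adjusted p of 1 in the quasi-binomial test). The depth of 18 to 64 reads left wide intervals, such as 60.8% to 94.2% around 83.3% in PR replicate 6 and 39.9% to 68.8% around 54.8% in Control replicate 4. Leaving out 1 library moved the difference between 6.80 and 11.01 points. The exact permutation p, unadjusted, was 0.0344 without PR replicate 7, 0.0240 without Control replicate 1 and 0.0460 without Control replicate 7, and above 0.05 without any other library. The CpGs at -50, -34 and -15 of the same start, shown in the sequence, averaged 96.8%, 95.02% and 94.4% in PR and 97.1%, 92.5% and 92.9% in Control.

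Of the 24 member CpGs under 80%, 15 lay at 10 cytosolic genes, from 43.4% to 78.9%, and 9 at 6 mitochondrial genes, from 42.5% to 79.8%. Of the cytosolic ones 9 were higher and 6 lower in PR, of the mitochondrial ones 5 and 4, and 0 reached an unadjusted quasi-binomial p of 0.05, beside 365 of 11421 such CpGs in all. The lowest was the 1 listed CpG of Mrpl2, the relative of bacterial L2 at the catalytic centre, which lies inside the span 54 bases from its end and within 2 kb of Cul7. It was at 33.3%, 50% and 53.3% in PR and at 29.8%, 38.9% and 44.4% in Control, with PR higher by 7.67 points (exact permutation p = 0.0608, unadjusted). In 5 PR libraries the level lay above every Control library, and in the other 3, at 33.3%, 34.0% and 44.1%, it lay inside the Control range. Between libraries of the same diet, the median variance at these partly methylated CpGs was 0.986 times that of counting noise at cytosolic genes. It was 0.957 times at mitochondrial genes, beside 1.17 times over all CpGs under 80%.

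**Figure D5:**
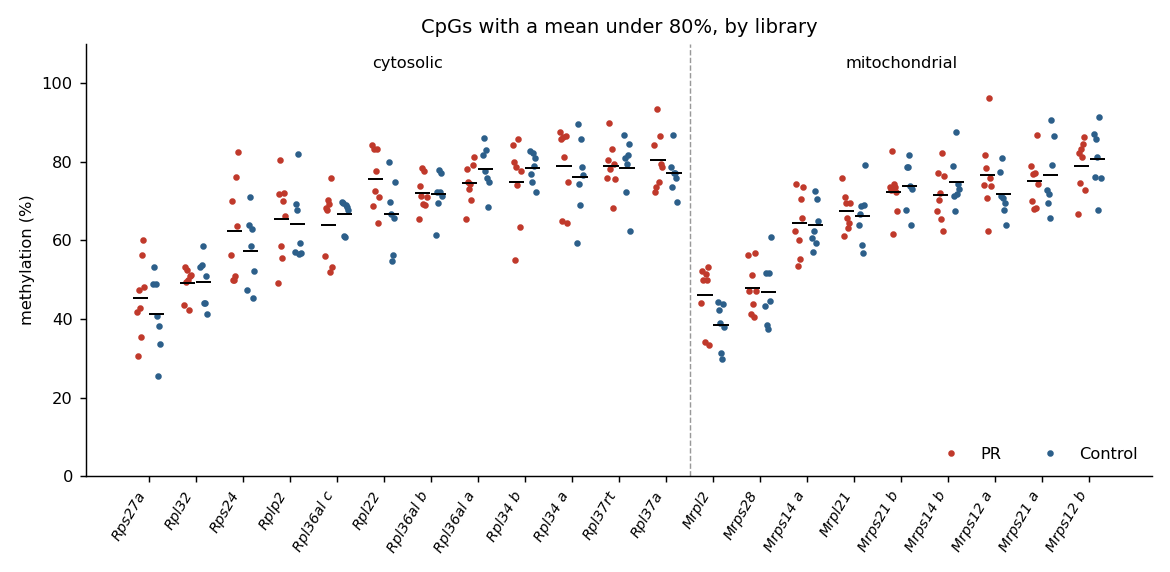
Methylation in percent of 21 of the 24 member CpGs with a mean under 80%, with 1 point per library, PR left of Control at each CpG and black bars at the group means; letters tell CpGs of 1 gene apart in order of position. The points of PR and Control overlap at all 21 CpGs, with the widest gaps between means at Rpl22 and Mrpl2.

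Genes with 1 or 2 CpGs were not in the gene-level test above. Among them Rps3, at 99.6% in PR and 97.2% in Control, and Mrpl38, at 92.9% in PR and 96.8% in Control, had an exact permutation p of 0.0294 and 0.0350, unadjusted and chosen after all values were seen. When the test took every gene with at least 1 listed CpG, 74 members among 12559 genes, it again called 0.

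Genes of the same pathway outside the naming rule gave no calls either. Of 46 cytosolic translation factors, 18 had 3 or more CpGs, with 9 higher and 9 lower in PR, a median difference of 0.0735 points and 0 calls after adjustment. Of 20 mitochondrial translation factors, 13 had 3 or more, with 4 higher and 9 lower, a median of -0.244 points and 0 calls. Among the 4 higher, Mtif2 (5 CpGs, 1.81 points) is not independent of the members, since its span holds the CpGs of the Rps27a flank. Of 12 further names on a list of mitochondrial and cytosolic ribosomal proteins outside the rule, Dap3, of the small mitochondrial subunit, and Tbrg4, a regulator of mitochondrial RNA rather than a ribosomal protein, had 3 or more CpGs. They differed by -0.215 and -0.618 points without passing the test. Of 8 relatives of ribosomal protein genes listed separately, only Rpl36al and Rpl7l1 had listed CpGs. The 9 measured S6 kinase genes, which share only the name stem, were 3 higher and 6 lower with a median of -0.312 points and 0 calls after adjustment. Of these, Rps6kb1 reached an unadjusted 0.05, at 98.1% ± 0.529 in PR and 97.4% ± 0.487 in Control (SD, n = 8 and 7; exact permutation p = 0.0287).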

How the data were processed

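RRBS libraries of G1 sperm from C57BL/6 males (8 PR, 7 Control, by the diet label) were used. Per the submitters' processing notes, reads were aligned with Bismark 0.7.12 and Bowtie2 2.1.0 to mm10; the notes give neither trimming, nor the treatment of reads with several matches, nor the filter behind the listed CpGs. The deposited files give, per CpG and library, the methylated count and the total count of reads, with no normalization by the authors. Percent methylation was the methylated count over the total count.

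Gene spans came from RefSeq (GRCm38.p6) by symbol, with 2 kb on either side; exons, introns and UTRs were not analysed here. Strand and promoter letters came from the RefSeq promoter table, which matched 139 of 169 genes. CpGs with at least 10 reads in every library entered the tests, and all 204492 did. Each CpG, and each gene with at least 3 CpGs and summed counts, was tested with a quasi-binomial 2-group model (F test on 13 degrees of freedom, dispersion of at least 1), with Benjamini-Hochberg adjustment over the whole table. For single genes and CpGs an exact two-sided permutation test over libraries was used. The scripts were tested on simulated data. Class values are means over CpGs, given as descriptions with no test.

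Genes named in the text were, per class, the 6 with the most CpGs, the 3 with the largest difference in each direction, every gene under 80%, the 3 CpGs with the smallest p in each direction, and the CpGs within 1 kb of a start. The values of 1 gene that this rule names are not reported here; it remains in the class values and counts. The members and lists were chosen with earlier results of these data known. Over 105 pairs of libraries the mean chi-square per CpG was 1.07 to 1.85, and no pair was treated as 1 library. Counting noise alone gives a value near 1, so this cannot tell whether the libraries came from separate animals. Alternatives were limma 3.58.1 (R 4.3.3) on log ratios with a pseudocount of 1 read or on percentages, a minimum of 20 reads, spans without flanks, other ways of averaging, CpGs of no other gene, and leaving out each library. Python 3.11.15, numpy 2.4.6, pandas 2.3.3 and scipy 1.17.1 were used.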

Additional observations from a re-analysis of the deposited data

Results flagged for a closer look

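In 11 of the 124 groups of libraries examined, 1 library stood apart from the others by Dixon's criterion, which chance alone meets in about 1 group in 20. In 5 of the 11 all other libraries of the group were at 100%, so that 1 or a few unmethylated reads sufficed.

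Among genes, Mrps11 was at 91.5% in PR replicate 1 and at 96.8% to 100% in the other PR libraries. Mrpl1 was at 95.7% in Control replicate 4, with the other Control libraries at 97.4% to 98.7%. Rpl22 was at 90.1% in Control replicate 3, with the others at 92.3% to 93.3%. Rplp2 was at 94.0% in Control replicate 4, above the others at 82.8% to 87.6%.

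Among single CpGs, the Rpl7l1 CpG at 46775620 was at 88.9% in PR replicate 3, against 96.2% to 100% in the other PR libraries, and at 97.4% in Control replicate 7, against 100% in the other Control libraries. The Mrps11 CpG at 78792592 was at 84.6% in PR replicate 1, with the others at 95.7% to 100%. PR replicate 7 stood apart at the Mrpl58 CpG at 115410328 with 95.5% and at the Mrps27 CpG at 99407350 with 95.8%, where the other PR libraries were at 100%. The Mrps6 CpG at 92108235 was at 98.7% in Control replicate 4, and the Rpl32 CpG at 115803736 at 96.3% in Control replicate 2, where the other Control libraries were at 100%.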

How the results depend on the processing

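After adjustment, 0 CpGs and 0 genes were called under every alternative run, with the quasi-binomial test or with limma. At an unadjusted 0.05, limma gave 9321 CpGs (8 of them members) and 437 genes. The quasi-binomial test gave 7754 CpGs (4 of them members) and 276 genes. Class differences between the diets stayed under the SD pooled over the diets, from -0.149 to 0.419 points at cytosolic genes (SD 0.434) and from -0.0454 to 0.189 points at mitochondrial genes (SD 0.285), and their sign changed with the setting. The cytosolic mean stayed below the mitochondrial one, but the size of -3.24 points moved to -1.16 with genes weighted equally, -4.54 with summed counts, -4.42 without flanks, -5.29 at a minimum of 20 reads (59 cytosolic and 65 mitochondrial CpGs left), -2.58 without the Rps27a and Rplp2 CpGs with more reads than their neighbour, and -1.10 without CpGs under 80%. The last pair of alternatives was chosen after seeing the data. Over the 88 cytosolic and 120 mitochondrial CpGs of no other protein-coding gene, the class difference was -2.95 points in PR and -3.31 in Control. Leaving out 1 library gave -3.28 to -3.19, and averaging libraries with consecutive title numbers -3.30.

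Of 23 named genes, 17 kept the sign of their difference under every alternative. The sign changed in Mrps28 (main -0.00570 points; 0.882 as a mean of CpG percents, 0.883 without flanks, -1.70 to 1.99 leaving out 1 library), Rps26 (0.212 as a mean of CpG percents, -0.374 to 0.0896 leaving out 1 library) and Rps27a (-0.441 without the CpG with more reads, -0.255 to 3.94 leaving out 1 library). Leaving out 1 library also changed it in Mrpl23 (-0.116 to 0.436), Rpl32 (-1.38 to 0.0175) and Rpl37rt (-0.000926 to 0.666). The exact permutation p of Mrpl1 and Rpl22 went under 0.05, unadjusted, in 4 alternatives, the lowest 0.00524 in Rpl22 without PR replicate 8. The 12 named CpGs kept their sign when 1 library was left out, and the exact permutation p of the Rpl7l1 and Rpl29 CpGs stayed under 0.05 in all 15 such cases. Those of the Rps3 and Mrps27 CpGs passed above 0.05 in 12 cases each, and that of the Rpl22 CpG under 0.05 in 3; the cause of these shifts was not tested.

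No paired analysis was possible because the replicate numbers follow accession order and the labels pair no libraries. The median depth of 26 to 42 reads a CpG sets the width of the intervals of single libraries, and CpGs with under 11 methylated reads in any library are not in the table.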
